A study of Mus musculus with 23 samples.

Results

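The 40 genes described here encode factors of ribosome biogenesis and of the nucleolus. They were taken as a list of gene symbols, and each was read from the probe set of that symbol with the highest mean level over all arrays. The list was drawn up with earlier results of these data known. All 40 passed the filter on low levels, among 15266 genes that passed and 18193 genes on the array. The question was whether genes of cell growth followed p53 as genes of the cell cycle did.

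Ribosomes are assembled mainly in the nucleolus, where RNA polymerase I copies the ribosomal RNA genes into a long precursor. Box C/D and box H/ACA ribonucleoproteins modify this precursor, and successive assembly factors cut and fold it into the small and the large subunit. The transcription factor Myc is known to raise many of these genes in growing cells, and p53, a tumour-suppressor transcription factor, is known both to arrest the cell cycle and to respond to defects in ribosome assembly.

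Total RNA of 23 samples of mouse embryonic fibroblasts, primary cells grown from embryos, was hybridised to Affymetrix arrays. Every sample carried the oncogene H-Ras V12, brought in by a retrovirus, and an adenovirus that held either Cre recombinase or nothing (Empty). Knock-in p53 alleles lay behind a stop cassette (LSL), which Cre removes. The groups below follow the sample titles.

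The 25,26 group (n = 5, LSL-25,26 with Cre) had p53 with amino acid changes in its first transactivation domain. In the 53,54 group (n = 3, LSL-53,54 with Cre) the second domain was altered, and QM fibroblasts (n = 3, LSL-QM with Cre) held both alterations. The Null group (n = 6) joined replicates 1 to 3, LSL-WT fibroblasts with Empty virus (LSL-WT Emp), and replicates 4 to 6, p53-null fibroblasts with Cre virus (Null Cre). The WT group (n = 6) joined replicates 1 to 3, LSL-WT fibroblasts with Cre virus (LSL-WT Cre), and replicates 4 to 6, fibroblasts with unmodified p53 and Cre virus (WT Cre). The strain was 129/Sv for 4 arrays of 25,26, 1 of 53,54, 2 of QM, 4 of Null and 3 of WT, and a mix of 129/Sv and C57BL6 for the other 1, 2, 1, 2 and 3 arrays. The genotype label of WT replicate 6 named LSL-WT although its title said WT, and the one for the last Null Cre array contained an extra knock-in. The design calls the samples biological but does not say whether they were separate embryos or cultures, so p-values measure only the spread between these samples.

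The deposited intensities were taken to log2, and a level below is a log2 intensity. The median level of an array lay between 5.90 and 6.00. Correlations between arrays ran from 0.966 to 0.997, and no pair of arrays was identical. As a check of the labels, all 10 p53 target genes on a short list fell in Null relative to WT, with a median log2 difference of -2.88, while Trp53 and the H-Ras transgene are not analysed here. The 10 fibroblast markers lay above the filter level on all arrays, with a mean over the list of 12.40 to 13.23 in Null arrays and 11.97 to 12.82 in WT arrays. Of these 10, Col3a1, Pdgfrb, Fap and Dcn rose in Null relative to WT, by 0.83 (Pdgfrb) to 1.10 (Fap). Of 8 macrophage markers 6 passed the filter, Ptprc and Itgam being below it on all arrays. The mean over the 6 that passed ran from 5.95 to 6.24 in Null arrays and from 5.99 to 6.46 in WT arrays. Cd68 of this list fell by 1.25 (adjusted p = 0.00428). Of 7 endothelial markers 4 passed the filter, with Pecam1, Emcn and Vwf below it on all arrays. The mean over the 4 that passed ran from 5.22 to 5.47 in Null arrays and from 5.30 to 6.17 in WT arrays. Of 6 muscle markers 5 passed and Acta1 fell by 1.79 (adjusted p = 1.89e-04). The mean over the 5 that passed was 6.43 to 6.67 in Null arrays and 6.77 to 7.38 in WT arrays. All 6 neural markers passed and Nes fell by 0.55, and 1 of 3 erythroid markers passed. Of 8 epithelial markers 3 were lower in Null than in WT, and the mean level over these 8 ran from 6.71 to 7.36 in Null arrays and from 7.39 to 7.89 in WT arrays. The part of these markers in the results below was not tested, and in bulk RNA fewer cells of a type and less RNA per cell cannot be told apart. Xist, which the inactive X chromosome of females expresses, lay between 5.72 and 6.81 in Null Cre arrays and between 11.47 and 11.86 in WT Cre arrays, so p53 state and sex cannot be told apart between these subgroups.

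Most of the 40 genes were well expressed. Their mean levels ran from 8.01 for Rrp12, a factor of late small-subunit assembly, to 13.66 for Npm1, nucleophosmin, with a median of 10.57. The median over all genes tested was 8.16, and 39 of the 40 lay above it. The median was 9.76 for 77 cell-cycle genes and 14.26 for the ribosomal proteins. Levels of different probe sets are not comparable as amounts of RNA, so these medians describe only how far the genes lay above the background of the arrays.

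Loss of p53 came with higher levels of part of the list. In Null relative to WT 18 of 40 genes rose and 1 fell at an adjusted p under 0.05 (limma, Benjamini-Hochberg over all 15266 genes), a total of 19. Over all genes 22.7% were called in either direction and 11.8% were called higher. Shares of all genes here and below come from the fit to all arrays without a replicate block or array weights. The median log2 difference was 0.30 for the 40 genes, with 36 of them above 0, and -0.00 for all genes. The cell-cycle genes moved further. Of 38 mitosis genes 37 rose, with a median of 1.63, and of 39 replication genes 36 rose, with a median of 1.22. Ncapd2, a condensin subunit, was higher by 1.83 ± 0.21 (log2 difference ± SE, as in all values of this form below) and Uhrf1, a factor that maintains DNA methylation, by 1.35 ± 0.15, whereas only Ifrd2 of the 40 genes was higher by more than 1 on the log2 scale.

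**Figure D1:**
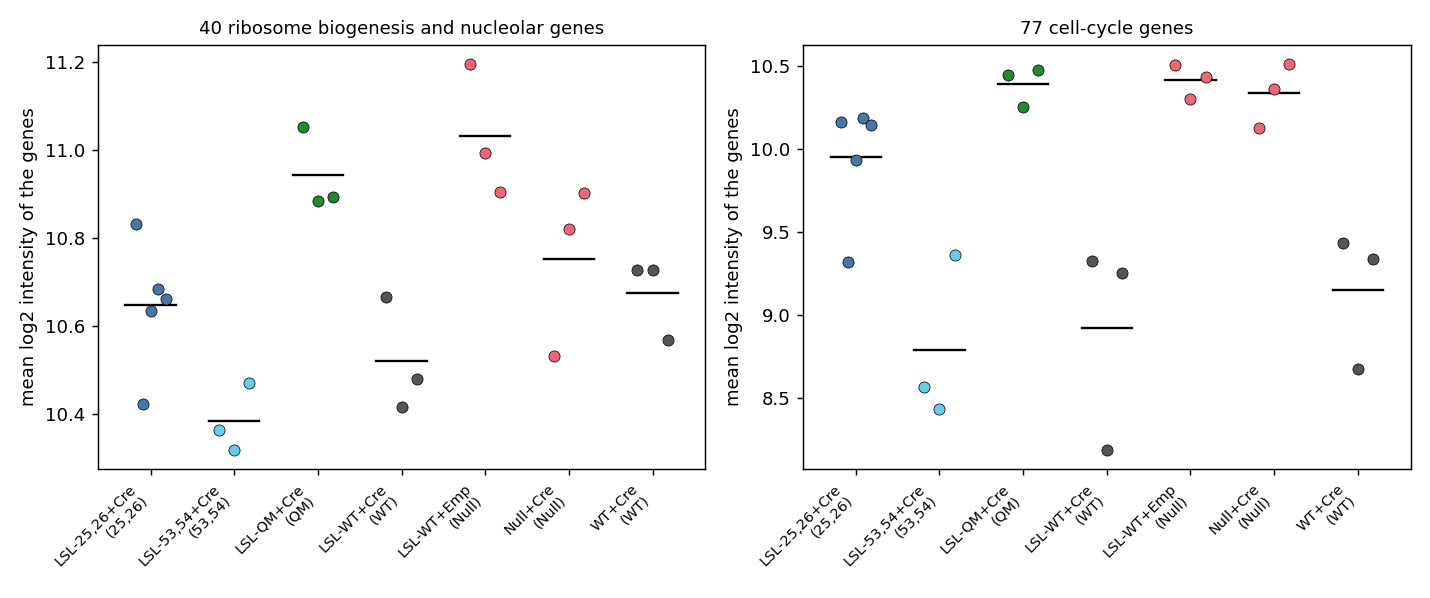
Mean log2 intensity of the 40 ribosome biogenesis and nucleolar genes (left) and of 77 cell-cycle genes (right) in each of 23 arrays, by subgroup, with the group in brackets. Each point is 1 array and each bar the mean of the subgroup, and the vertical axes differ. The cell-cycle means of Null arrays (10.13 to 10.52) lie above those of all WT arrays (8.18 to 9.43), whereas the means of the 40 genes overlap, at 10.53 to 11.20 in Null arrays and 10.42 to 10.73 in WT arrays.

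The mean over the 40 genes was 11.20, 10.99 and 10.91 in LSL-WT Emp arrays and 10.53, 10.82 and 10.90 in Null Cre arrays. It was 10.67, 10.42 and 10.48 in LSL-WT Cre arrays and 10.73, 10.73 and 10.57 in WT Cre arrays. Null replicate 4 lay below 4 of the 6 WT arrays, and all 3 LSL-WT Emp arrays lay above all WT arrays. WT replicate 5 had the second-lowest cell-cycle mean of the WT group, 8.67, and a mean over the 40 genes of 10.73, the highest of that group. The array with title number 2 had the lowest mean of its subgroup in 4 of 7 subgroups for the 40 genes and in 6 of 7 for the cell-cycle genes.

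Of the 4 regulators on the list 2 rose in Null relative to WT, against 11.8% of all genes called higher. Ifrd2, an interferon-related gene whose protein binds translationally inactive ribosomes in rabbit reticulocytes, ran from 8.91 to 9.997 in Null arrays (median 9.29) and from 8.05 to 8.73 in WT arrays (median 8.18). The difference of its probe set, 1451016_at, was 1.12 ± 0.20, a 2.17-fold higher intensity (adjusted p = 3.34e-04). It was the largest of the 40 genes, and the groups did not overlap. Myc, read from probe set 1424942_a_at, ran from 10.58 to 11.02 in Null arrays (median 10.86) and from 10.11 to 10.76 in WT arrays (median 10.42). It was higher by 0.43 ± 0.10 (adjusted p = 0.00348), although the WT Cre arrays, at 10.59, 10.76 and 10.52, overlapped the Null arrays and the LSL-WT Cre arrays did not. Mybbp1a, a Myb-binding nucleolar protein, differed by 0.40 ± 0.15 (adjusted p = 0.0635), and Pa2g4, a proliferation-associated RNA-binding protein, by 0.06 ± 0.17, neither past the threshold in this fit.

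Of the 5 abundant nucleolar proteins 4 rose in Null relative to WT, against 11.8% of all genes called higher. Ncl, nucleolin, ran from 13.51 to 13.82 in Null arrays (median 13.61) and from 13.22 to 13.48 in WT arrays (median 13.38). The arrays of Ncl did not overlap, and the difference of 0.28 ± 0.07 had an adjusted p of 0.00546. Npm1 ran from 13.58 to 14.12 in Null arrays (median 13.86) and from 13.29 to 13.74 in WT arrays (median 13.58). It was higher by 0.31 ± 0.10 (adjusted p = 0.0211), with overlap between the groups. Nolc1, a chaperone of small nucleolar ribonucleoproteins, ran from 10.69 to 11.79 in Null arrays (median 11.09) and from 10.17 to 10.93 in WT arrays (median 10.64). Its difference of 0.53 ± 0.19 was near the threshold (adjusted p = 0.0463), and the call was lost without any 1 of 6 of the 12 arrays (Null replicates 1, 2 and 3 and WT replicates 2, 3 and 6). That of Npm1 was lost without Null replicate 1 or 3 or WT replicate 2 or 5. The GTPase gene Gnl3, nucleostemin, rose by 0.43 ± 0.12, and the helicase gene Ddx21 differed by 0.20 ± 0.14 without passing.

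The subunits of RNA polymerase I did not move together. Polr1b, which encodes its second-largest subunit, ran from 9.26 to 9.76 in Null arrays (median 9.70) and from 8.93 to 9.24 in WT arrays (median 9.12). It was higher by 0.52 ± 0.09 (adjusted p = 2.98e-04), without overlap, and Polr1a, for the largest subunit, by 0.39 ± 0.11. Polr1e, for a peripheral subunit (probe set 1419058_at), ran from 8.61 to 9.08 in Null arrays (median 9.02) and from 8.96 to 9.67 in WT arrays (median 9.29). It was the 1 member that fell, at -0.34 ± 0.12 (adjusted p = 0.0479), and the call survived only the omission of WT replicate 1 or of WT replicate 3 among the 12 arrays. Ubtf, the upstream binding factor of ribosomal RNA genes, ran from 9.72 to 10.51 in Null arrays (median 9.94) and from 9.61 to 10.19 in WT arrays (median 9.80). The difference of 0.22 ± 0.16 did not pass in this fit (adjusted p = 0.379).

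Among the ribonucleoproteins that modify ribosomal RNA, 5 of 7 rose, against 11.8% of all genes called higher. Dkc1, dyskerin (probe set 1438016_at), the pseudouridine synthase of box H/ACA particles and of telomerase, ran from 11.41 to 12.13 in Null arrays (median 11.83) and from 10.81 to 11.24 in WT arrays (median 11.17). It was higher by 0.71 ± 0.11 (adjusted p = 4.69e-05), without overlap, and had the smallest p-value of the 40 genes. Its partner Gar1 ran from 10.67 to 11.57 in Null arrays (median 11.26) and from 10.11 to 10.85 in WT arrays (median 10.62), a rise of 0.65 ± 0.16 (adjusted p = 0.00388) with overlap. Nhp2, the third protein of these particles on the list, differed by 0.28 ± 0.15 and did not pass in this fit. Of the box C/D proteins, Nop56 ran from 11.52 to 12.29 in Null arrays (median 12.03) and from 11.02 to 11.62 in WT arrays (median 11.37). It was higher by 0.64 ± 0.13 (adjusted p = 7.86e-04), its partner Nop58 by 0.46 ± 0.13. Fbl, fibrillarin, the methyltransferase of these particles, ran from 12.01 to 12.98 in Null arrays (median 12.51) and from 11.83 to 12.35 in WT arrays (median 12.14). Its rise of 0.43 ± 0.13 (adjusted p = 0.0228) was lost without Null replicate 1 or 3 or WT replicate 2 or 5. Rrp9, the U3-specific protein of this class, ran from 9.75 to 10.83 in Null arrays (median 10.06) and from 9.81 to 10.50 in WT arrays (median 10.20), so the groups largely coincided.

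Of 11 small-subunit assembly factors 4 rose in Null relative to WT (36.4%) and of 9 large-subunit factors 1 rose (11.1%). Over all genes 11.8% were called higher, so in this fit the large-subunit share lay near that of all genes. Wdr75, a subunit of the early complex on the ribosomal RNA precursor, ran from 10.57 to 11.01 in Null arrays (median 10.79) and from 10.07 to 10.48 in WT arrays (median 10.29). The groups did not overlap and differed by 0.53 ± 0.11 (adjusted p = 0.00108). Wdr43, of the same complex, ran from 10.40 to 11.16 in Null arrays (median 10.82) and from 10.27 to 10.61 in WT arrays (median 10.35), a rise of 0.42 ± 0.10 (adjusted p = 0.00492) with overlap. Noc4l rose by 0.33 ± 0.11, a call lost without any 1 of 9 arrays (WT replicates 2, 3, 5 and 6 and all Null replicates but the fourth), and Ltv1, needed for late 40S maturation in yeast, by 0.31 ± 0.08. The other 7 small-subunit genes, Heatr1, Utp20, Nol6, Nop14, Rrp12, Bysl and Tsr1, lay between -0.24 (Utp20) and 0.25 (Heatr1) and none passed. Utp20 ran from 9.71 to 10.42 in Null arrays (median 10.32) and from 10.21 to 10.71 in WT arrays (median 10.49). On the large-subunit side Ebna1bp2 rose by 0.55 ± 0.15 (adjusted p = 0.00857). The other 8, Nop2, Nop16, Bop1, Pes1, Wdr12, Rrs1, Nip7 and Noc2l, lay between -0.16 (Bop1) and 0.33 (Noc2l). Nop2 ran from 10.61 to 11.15 in Null arrays (median 10.70) and from 10.35 to 11.29 in WT arrays (median 10.61), and Bop1 from 9.76 to 10.70 in Null arrays (median 10.10) and from 10.04 to 10.67 in WT arrays (median 10.28). Both gave overlapping groups. Pes1, Bop1 and Wdr12, which form the PeBoW complex of large-subunit maturation, differed by 0.18 ± 0.10, -0.16 ± 0.14 and 0.11 ± 0.16. Of the 18 genes that rose 14 kept their call whichever 1 array was left out. With the title numbers of the samples as a replicate block over all arrays, further genes rose in Null relative to WT. These were Mybbp1a (limma, adjusted p = 0.00438), Ubtf (0.0121), Noc2l (0.0209), Nhp2 (0.024) and Nip7 (0.0243). The arrays of Null and WT did not meet the rule for pairing given below. Probe sets of 1 gene can differ: 28 of the 40 genes had several, and for Ebna1bp2, Nip7, Nop16, Pa2g4, Pes1 and Wdr12 they differed in sign in this comparison.

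**Figure D2:**
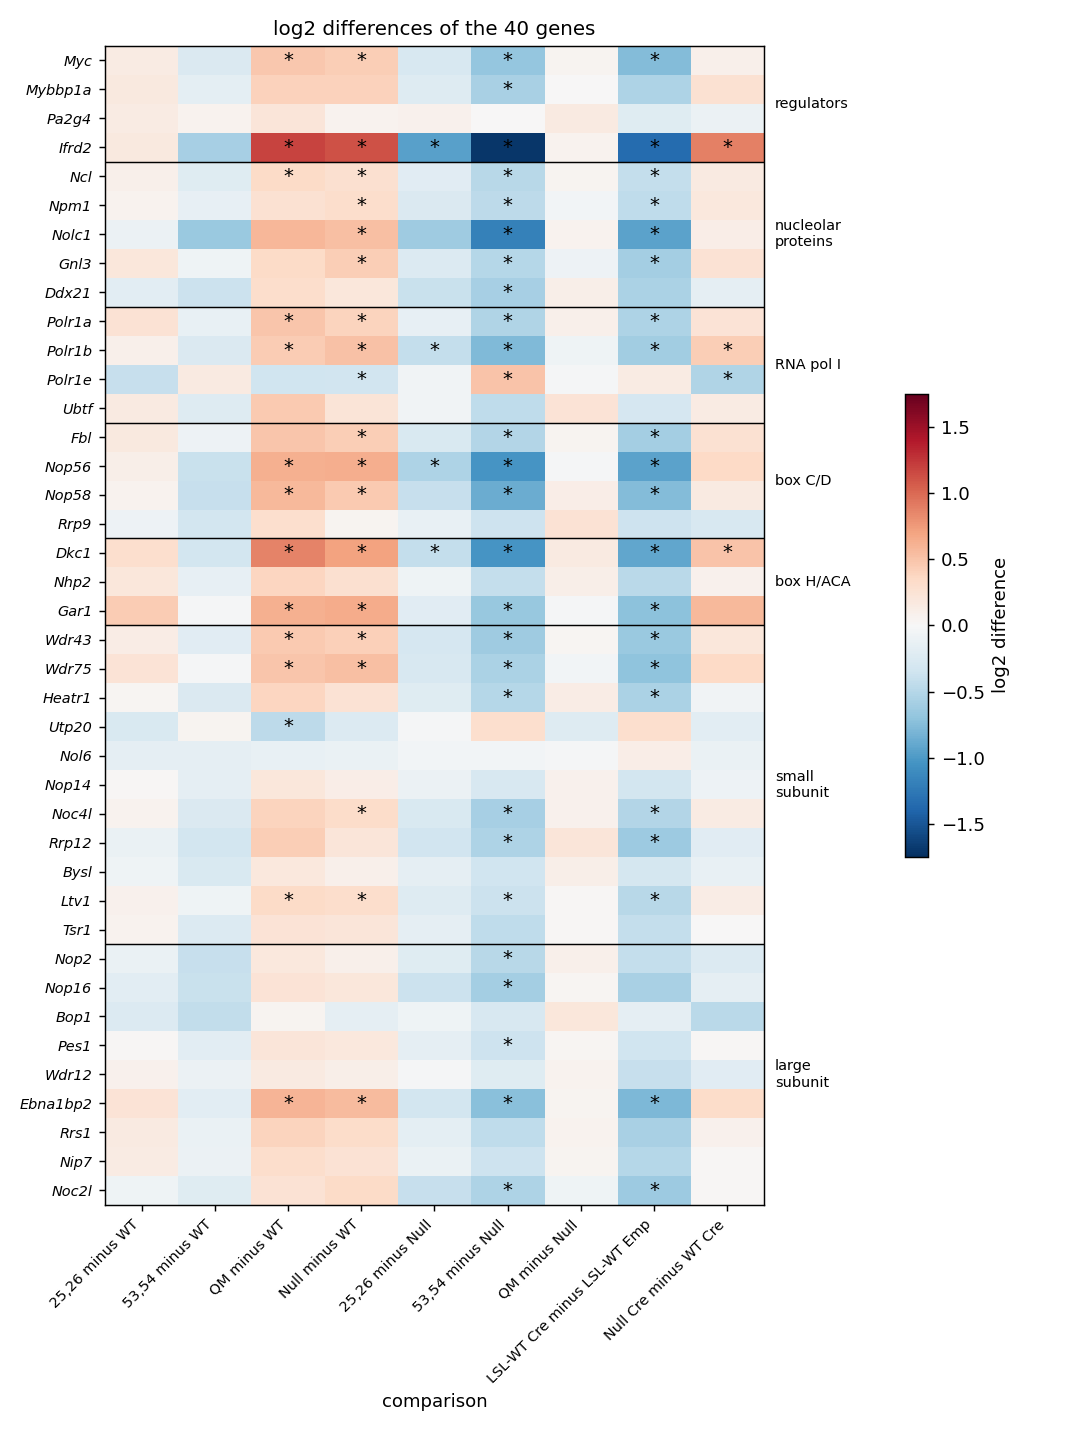
Log2 difference of each of the 40 genes (rows, grouped by role) in 9 comparisons (columns). Red is higher and blue lower in the group named first, and an asterisk marks an adjusted p under 0.05. Against WT 18 genes rose in the Null column and 13 in the QM column, the 25,26 and 53,54 columns against WT hold no asterisk, and the 53,54 column against Null is blue in 37 of 40 rows.

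The QM group, with both transactivation domains changed, lay above WT for part of the list. Relative to WT 13 genes rose and 1 fell, a total of 14, against a background of 13.9% of all genes in either direction and 8.16% higher. The median was 0.36 and 37 of 40 were above 0. The comparison uses the same WT arrays as that of Null with WT. Dkc1 was at 12.13, 11.90 and 11.92 in QM arrays, all above the highest WT array, and was higher by 0.86 ± 0.13 (adjusted p = 1.20e-04). Ifrd2 was at 9.58, 9.76 and 9.01 in QM arrays, also above all WT arrays, and was higher by 1.19 ± 0.25 (adjusted p = 0.00254). These 2 genes kept their call without any 1 array. Nop56, at 11.92, 12.13 and 11.90 in QM arrays, was higher by 0.63 ± 0.16, and Myc, at 10.77, 10.80 and 11.05, by 0.47 ± 0.12.

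Of the other genes described array by array, some passed in QM and some did not. Ncl was at 13.75, 13.71 and 13.68, Npm1 at 13.97, 13.72 and 13.73, and Polr1b at 9.53, 9.44 and 9.65 in QM arrays. Ncl and Polr1b passed against WT (0.34 ± 0.09 and 0.44 ± 0.11) and Npm1 did not (0.26 ± 0.12, adjusted p = 0.167). Fbl was at 12.75, 12.41 and 12.58 and Ubtf at 10.50, 10.38 and 9.98, neither past the threshold. Gar1 was at 11.32, 10.88 and 11.25, Wdr43 at 10.96, 10.80 and 10.79, and Wdr75 at 10.70, 10.67 and 10.91, and all 3 rose. Utp20, a large scaffold protein of the early small-subunit precursor, was at 10.02, 10.02 and 9.98 in QM arrays and ran from 10.21 to 10.71 in WT arrays (median 10.49). It was the 1 member that fell, at -0.46 ± 0.15 (adjusted p = 0.0396). The number of calls in QM rested on few arrays, since it was 6 without QM replicate 1, 9 without replicate 2 and 6 without replicate 3. Nolc1, at 11.68, 10.98 and 10.91, Nop2, at 10.82, 11.05 and 10.73, Bop1, at 10.61, 10.28 and 10.17, Rrp9, at 10.78, 10.39 and 10.17, and Polr1e, at 8.89, 8.84 and 9.12 in QM arrays, did not pass against WT. Directly compared with Null, no member of the list was called in QM, against 0.0131% of all genes, and the median was 0.05. No member had an unadjusted p under 0.05, against 377 of all 15266 genes. For Dkc1 the QM minus Null difference was 0.15 ± 0.13 and for Myc 0.04 ± 0.12.

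The 25,26 group, with the first transactivation domain changed, showed no call of the list against WT by limma, while 7.7% of all genes were called. An unadjusted p under 0.05 was found for 5 of the 40 genes and for 3118 of all 15266 genes. The median of the 40 genes was 0.08. In the same comparison 30 of 38 mitosis genes rose, with a median of 1.17, and 20 of 39 replication genes, with a median of 0.74. The title numbers of the samples were taken to pair the arrays of these groups, although the labels do not say what equal numbers mark. Blocking on them over all arrays gave 3 genes that rose: Gar1 (adjusted p = 0.00922), Pa2g4 (0.0304) and Ubtf (0.0466). Without 25,26 replicate 2 or 3, or WT replicate 1 or 3, there was 1 call instead of 0.

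Dkc1 was at 11.62, 11.21, 11.34, 11.51 and 11.40 in 25,26 arrays, with 4 of the 5 above all WT arrays and 2 above the lowest Null array. Its difference from WT was 0.29 ± 0.11 (adjusted p = 0.125), and relative to Null it fell by 0.41 (SE 0.11, adjusted p = 0.0372), a call lost without any 1 of 9 of the 11 arrays. Ifrd2 was at 8.89, 8.57, 8.38, 8.26 and 8.08 in 25,26 arrays, all below every Null array. It fell by 0.95 relative to Null (SE 0.21, adjusted p = 0.0114), and this call did not depend on any 1 array. Nop56 was at 11.60, 11.05, 11.57, 11.58 and 11.50 and Polr1b at 9.20, 9.05, 9.02, 9.35 and 9.35 in 25,26 arrays. Their differences from Null were -0.54 ± 0.13 and -0.42 ± 0.10, and the call of Nop56 was lost without 25,26 replicate 2 or Null replicate 2 and that of Polr1b without 25,26 replicate 3. These 4 were the genes called lower than Null, and none was higher, against 4.3% of all genes in either direction and 1.28% lower. The median was -0.22, and 39 of the 40 were below 0. The count was 2 without 25,26 replicate 2 or 3 or without Null replicate 2, and 10 with weights per array. The medians of the 38 mitosis and 39 replication genes in 25,26 against Null were -0.49 and -0.42.

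The remaining genes described array by array overlapped the WT arrays in 25,26. Myc was at 10.48, 10.61, 10.63, 10.54 and 10.49. Ncl was at 13.68, 13.44, 13.43, 13.43 and 13.34, and Npm1 at 13.74, 13.45, 13.55, 13.66 and 13.66. Fbl was at 12.53, 11.92, 12.24, 12.30 and 12.36, with 25,26 replicate 2 lowest. Gar1 was at 11.08, 10.56, 10.89, 11.12 and 11.18, a difference of 0.44 ± 0.16 from WT (adjusted p = 0.11) without the block. Polr1e was at 8.85, 8.58, 9.16, 8.92 and 8.98, a difference of -0.40 ± 0.13 from WT that did not pass (adjusted p = 0.0542). Utp20, at 10.22, 9.80, 10.33, 10.35 and 10.34, and Nolc1, at 11.08, 10.18, 10.54, 10.36 and 10.35, also had replicate 2 as the lowest array. Wdr43, at 10.67, 10.32, 10.49, 10.57 and 10.54, and Wdr75, at 10.42, 10.19, 10.57, 10.75 and 10.68, shared that order. None of these genes passed against WT without the block. Ubtf was at 10.30, 10.21, 9.93, 9.77 and 9.73, and Nop2 at 10.69, 10.60, 10.48, 10.53 and 10.57. Rrp9 was at 10.50, 10.03, 9.94, 9.87 and 9.96, and Bop1 at 10.43, 9.99, 10.01, 9.99 and 9.97, both with 25,26 replicate 1 apart from the others.

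The 53,54 group, with the second transactivation domain changed, had the lowest mean of the 5 groups for 36 of the 40 genes, against 30.1% of all genes tested and 72 of the 77 cell-cycle genes. The mean of QM or of Null was the highest for 37 of the 40 and for 41.7% of all genes. Relative to WT no gene of the list passed in 53,54 by limma, and 0.367% of all genes were called. Here 11 of the 40 genes had an unadjusted p under 0.05, against 1100 of all 15266 genes. The median was -0.20, with 37 of 40 genes below 0. With weights per array 8 genes were called. The lowest differences from WT were those of Nolc1 at -0.65 ± 0.23, Ifrd2 at -0.58 ± 0.25, Bop1 at -0.44 ± 0.17, Nop58 at -0.40 ± 0.16, Nop2, a methyltransferase of large-subunit RNA, at -0.40 ± 0.15, and Nop56 at -0.40 ± 0.16.

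Relative to Null, 26 genes fell in 53,54 and 1 rose, a total of 27, against 19.6% of all genes in either direction and 10.3% lower. The median was -0.50. Ifrd2 was at 8.22, 7.28 and 7.56 in 53,54 arrays, all below the lowest Null array, a difference of -1.70 ± 0.25 (adjusted p = 3.51e-05). Dkc1 was at 10.69, 10.67 and 11.04, also below every Null array, with a difference of -1.03 ± 0.13 (adjusted p = 6.65e-06). Nolc1, at 10.17, 9.82 and 9.87, differed by -1.18 ± 0.23, and Nop56, at 10.82, 10.82 and 11.24, by -1.04 ± 0.16. Both lay below all Null arrays.

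Myc was at 10.16, 10.08 and 10.21 in 53,54 arrays and differed from Null by -0.68 ± 0.12 (adjusted p = 3.60e-04). Polr1b, at 8.67, 8.77 and 9.07, differed by -0.77 ± 0.11. The 5 abundant nucleolar proteins all fell: Ncl, at 13.26, 13.09 and 13.16, by 0.49 on the log2 scale, and Npm1, at 13.30, 13.30 and 13.60, by 0.46, with the call of Npm1 lost without 53,54 replicate 2 or 3. Nop2, at 10.47, 10.12 and 10.28, fell by 0.49, and its call was lost without 53,54 replicate 3 or 4 or Null replicate 2. Fbl, at 11.86, 12.07 and 12.12, Gar1, at 10.30, 10.49 and 10.74, Wdr43, at 10.25, 10.03 and 10.33, and Wdr75, at 10.06, 10.13 and 10.56, fell as well. The call of Fbl was lost without 53,54 replicate 2 or 3 or Null replicate 1 or 3, and that of Gar1 without 53,54 replicate 2 or 3. Ubtf, at 10.02, 9.62 and 9.17, Utp20, at 10.50, 10.44 and 10.63, Rrp9, at 9.95, 9.82 and 9.70, and Bop1, at 9.99, 9.87 and 9.76, did not pass. Polr1e was at 9.29, 9.67 and 9.43, above all Null arrays, and was the gene that rose, by 0.50 ± 0.15 (adjusted p = 0.0189), a call lost without 53,54 replicate 3. The count of 27 was 17 without 53,54 replicate 2 and 12 without replicate 3, and 11 genes kept their call without any 1 array. The title numbers were taken to pair these arrays, and blocking on them over all arrays gave 34 calls, 1 of them higher. The mitosis and replication genes fell in 37 of 38 and 37 of 39 cases, with medians of -1.91 and -1.39.

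**Figure D3:**
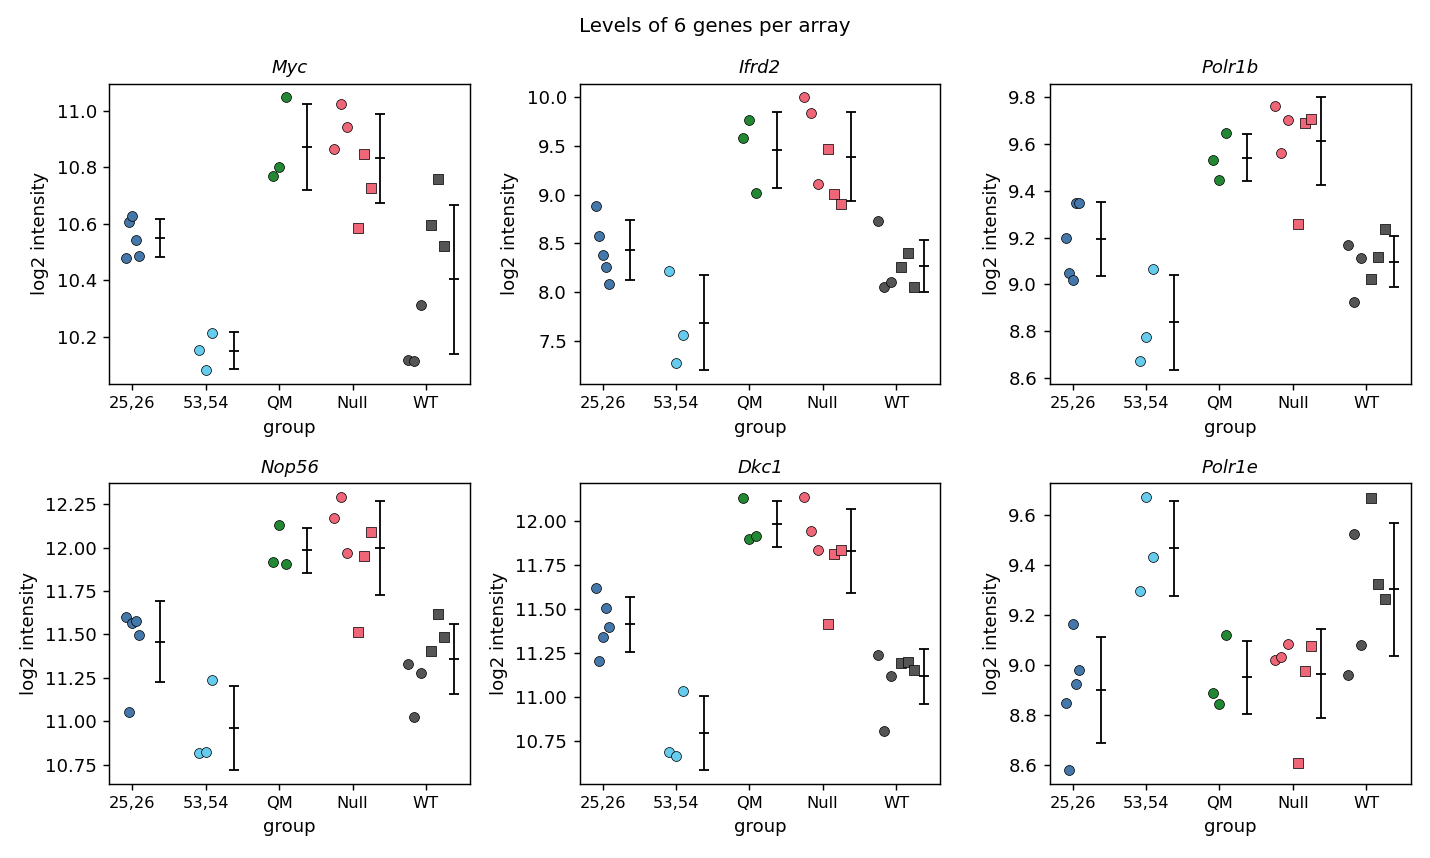
Log2 intensity of Myc, Ifrd2, Polr1b, Nop56, Dkc1 and Polr1e in each array of the 25,26, 53,54, QM, Null and WT groups, with group mean and SD as bars; the vertical axes differ between genes and do not start at 0. In the Null and WT groups circles are the LSL-WT arrays (replicates 1 to 3) and squares the Null Cre or WT Cre arrays (replicates 4 to 6). Dkc1 in Null (11.41 to 12.13) lies above WT (10.81 to 11.24), and Polr1e is lower in Null (8.61 to 9.08) than in WT (8.96 to 9.67), with overlap.

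The comparison of Null with WT held parts that shared no arrays and could be read apart. In the first, LSL-WT Cre minus LSL-WT Emp, p53 was restored by Cre in the same kind of fibroblasts. No gene of the list rose and 21 fell, against 11.7% of all genes in either direction and 6.89% lower, and the median was -0.54. Dkc1 was at 11.24, 10.81 and 11.12 in LSL-WT Cre arrays and at 12.13, 11.94 and 11.84 in LSL-WT Emp arrays, a difference of -0.91 ± 0.14 (adjusted p = 2.65e-04). Myc was at 10.12, 10.11 and 10.31 in LSL-WT Cre arrays and at 10.86, 11.02 and 10.94 in LSL-WT Emp arrays, a difference of -0.76 ± 0.10 (adjusted p = 4.27e-05). Ifrd2 differed by -1.35 ± 0.28, Nop56 by -0.93 ± 0.16 and Nolc1 by -0.94 ± 0.24, and for these 5 genes the arrays of the subgroups did not overlap. The count was 10 without WT replicate 2 or without Null replicate 1. The title numbers were taken to pair these arrays, and with them as a block over all arrays 33 genes fell. The mitosis genes fell in 37 of 38 cases (median -1.77) and the replication genes in 32 of 39 (median -1.33).

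In the other part, Null Cre minus WT Cre, both subgroups had received Cre. Here 3 genes rose and 1 fell, a total of 4, against 15.9% of all genes, and the median was 0.09, with 26 of 40 genes above 0. Ifrd2 was at 9.47, 9.003 and 8.91 in Null Cre arrays and at 8.26, 8.41 and 8.05 in WT Cre arrays, a rise of 0.89 ± 0.28 (adjusted p = 0.035). Dkc1, a gene of the X chromosome, was at 11.41, 11.81 and 11.83 in Null Cre arrays and at 11.19, 11.20 and 11.15 in WT Cre arrays, a rise of 0.50 ± 0.14 (adjusted p = 0.0197). Polr1b rose by 0.42 ± 0.13 (adjusted p = 0.036). Polr1e was at 8.61, 8.97 and 9.07 in Null Cre arrays and at 9.67, 9.32 and 9.26 in WT Cre arrays, and fell by 0.53 (SE 0.17, adjusted p = 0.035). For these 4 genes the arrays did not overlap. The count was 0 without Null replicate 5 or WT replicate 4, 1 without WT replicate 5, 2 without Null replicate 6, 7 with weights per array, and 0 with the Xist level as a covariate. Myc was at 10.58, 10.85 and 10.73 in Null Cre arrays and at 10.59, 10.76 and 10.52 in WT Cre arrays, a difference of 0.10 ± 0.10 (adjusted p = 0.624). The cell-cycle genes kept to the direction of the whole comparison, with 32 of 38 mitosis genes higher (median 1.43) and 23 of 39 replication genes higher (median 0.92).

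The difference between these parts was itself tested, as WT minus Null within the LSL-WT arrays less WT minus Null within the Null Cre and WT Cre arrays. The subgroups compared differ in Cre or Empty virus in the LSL-WT arrays and in Xist level in the others, so p53 state cannot be told apart from these. No gene of the list passed by limma, and 0.00655% of all genes were called. An unadjusted p under 0.05 was found for 13 of the 40 genes and for 1193 of all 15266 genes. The median was -0.42 for the 40 genes, with 38 below 0, and Myc had the smallest p-value of the list (-0.67 ± 0.14, adjusted p = 0.117). Without WT replicate 6 there was 1 call. The medians of the mitosis and replication genes in this difference were -0.29 and -0.29.

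The subgroups of the same p53 state were also set against each other. In Null Cre minus LSL-WT Emp, neither with p53, 39 of the 40 genes were below 0, with a median of -0.27. None passed by limma, and 0.216% of all genes were called. An unadjusted p under 0.05 was found for 9 of the 40 genes and for 1102 of all 15266 genes. In LSL-WT Cre minus WT Cre, both with p53, the median was -0.18 and Myc was the 1 gene called (-0.44 ± 0.10, adjusted p = 0.0347), against 0.983% of all genes. This call was lost without WT replicate 1, 2, 4 or 5. The title numbers were taken to pair these arrays. Blocking on them over all arrays gave 5 calls, Myc (adjusted p = 0.00794), Tsr1 (0.0167), Wdr12 (0.0283), Wdr75 (0.0288) and Nop2 (0.0297). The mitosis and replication genes had medians of -0.07 and -0.06 in Null Cre minus LSL-WT Emp and of -0.25 and -0.22 in LSL-WT Cre minus WT Cre. The subgroups also differed in strain and in Xist, at 6.40 to 12.71 in LSL-WT Cre and 11.47 to 11.86 in WT Cre arrays. In LSL-WT Emp arrays Xist ran from 6.32 to 12.62 and in Null Cre arrays from 5.72 to 6.81, and the virus differed as well. The part of these traits was not tested, and the number of working p53 alleles is not given here. Both comparisons were added after the values had been seen.

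**Figure D4:**
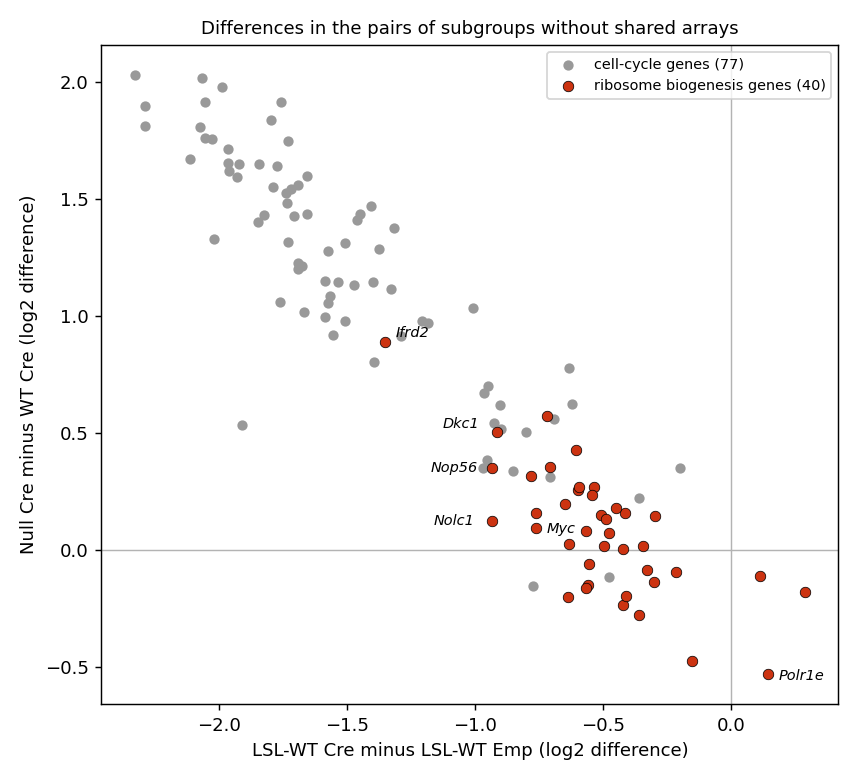
Log2 difference of each of the 40 genes (red) and of 77 cell-cycle genes (grey) in LSL-WT Cre minus LSL-WT Emp (horizontal axis) and in Null Cre minus WT Cre (vertical axis), comparisons that share no arrays. Both sets lie left of 0 on the horizontal axis for nearly all genes, but the 40 genes scatter around 0 on the vertical axis (median 0.09) while the mitosis genes have a median of 1.43.

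Wider lists of the same pathway had smaller medians than the 40 genes in Null relative to WT. Of 45 further small-subunit assembly genes 10 rose and 1 fell (median 0.18). Dimt1, a dimethyltransferase of small-subunit RNA, was higher by 0.62 ± 0.12, Utp11 by 0.51 ± 0.07 and Utp6 by 0.50 ± 0.09, and Rrp36 fell by 0.70. Of 49 large-subunit assembly genes 10 rose and none fell (median 0.10), among them the helicase gene Ddx18 at 0.50 ± 0.08. Of 30 genes of RNA polymerase I and III and their factors 5 rose and 2 fell (median 0.06). The shares called in either direction, 24.4%, 20.4% and 23.3%, lay near the 22.7% of all genes. Tcof1, treacle, a nucleolar factor of ribosomal RNA transcription, was higher by 1.11 ± 0.21 (adjusted p = 5.55e-04), Polr3g, a subunit of RNA polymerase III, was higher by 0.79 ± 0.15, and Gtf3c1, a subunit of its initiation factor, differed by -0.87 ± 0.09 (adjusted p = 4.53e-07).

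The ribosomal proteins had differences near 0, measured near the top of the intensity scale. Their median level of 14.26 compares with a highest log2 intensity of 14.97 on any array, and whether differences are compressed there was not tested. Of 43 tested, from 80 listed, none rose and 1 fell, Rps19 at -0.18 ± 0.05 (adjusted p = 0.0176), and the median was 0.01. Their mean level ran from 13.21 to 13.40 in Null arrays and from 13.23 to 13.41 in WT arrays. Of 35 Myc targets outside the ribosome 14 rose and 2 fell (median 0.21). The share called was 45.7%, against 47.5% of the 40 genes and 22.7% of all genes. Shmt1 and Shmt2, enzymes of one-carbon metabolism, were higher by 1.36 ± 0.17 and 0.93 ± 0.12, and Prps2, an enzyme of nucleotide synthesis, differed by -1.47 ± 0.12. In the Myc network, 16 genes, 4 rose and 2 fell, a share of 37.5% called. Mxd3, a partner of Max, was higher by 1.03 ± 0.10 and Fbxw7, a ubiquitin ligase subunit that marks Myc for degradation, differed by -0.69 ± 0.10. Of 18 genes of growth signalling 2 rose and 2 fell, a share of 22.2% called, near the 22.7% of all genes. Those that rose were Prkab1 (0.47 ± 0.08) and Larp1 (0.27 ± 0.08). The 2 that fell were Sesn2 (-1.32 ± 0.15) and Ddit4 (-1.13 ± 0.20), inhibitors of the mTORC1 growth pathway and known p53 targets. Sesn1 of the same list differed by 0.21 ± 0.08 and did not pass.

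**Figure D5:**
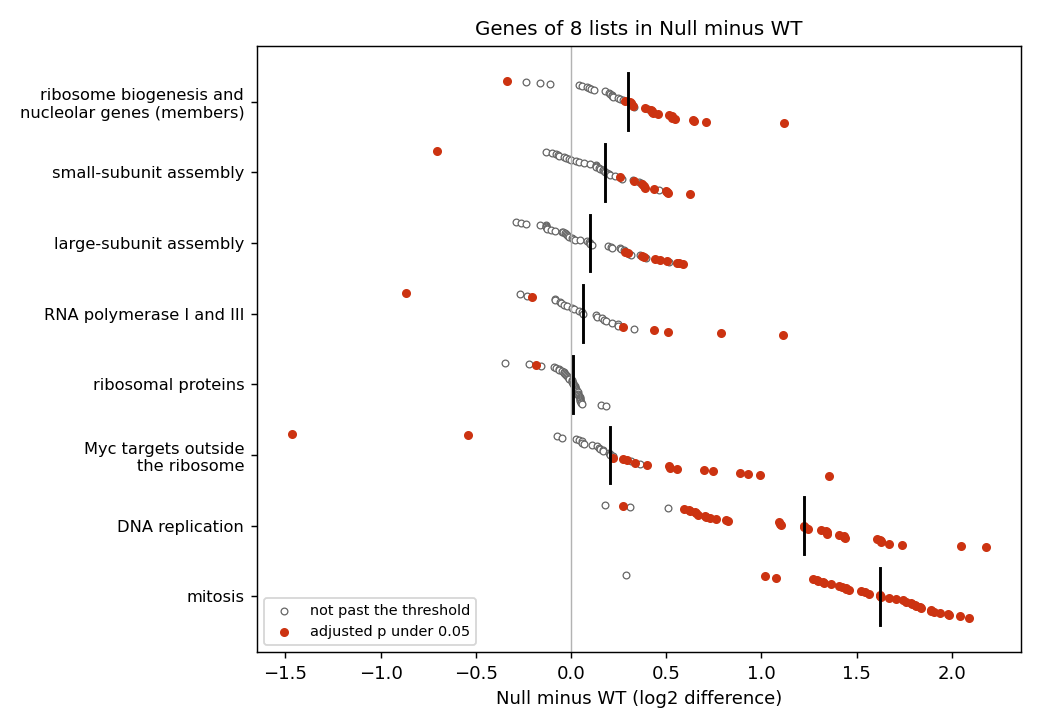
Log2 difference between Null and WT of the genes of 8 lists, 1 point per gene, with red points at an adjusted p under 0.05 and a black bar at the median. Cavin1 of the polymerase list and Rps3a1 of the ribosomal proteins, counted in the text, are not drawn. The medians run from 0.01 for ribosomal proteins over 0.30 for the 40 genes to 1.63 for mitosis genes.

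Promoter sequences were set beside these differences for 33 of the 40 genes, from the RefSeq annotation of GRCm38.p6, as windows of 300 bases from 250 before to 50 after the start. Those of Myc, Npm1, Fbl, Nol6, Rrp12, Bop1 and Rrs1 are not shown. Some genes had several windows (32851 windows for 27025 genes), and a gene was counted if any of its windows held the motif. CACGTG, the E-box that Myc and Max bind, is its own reverse complement. It occurred in 7 of the 33 genes (21.2%), Ltv1, Mybbp1a, Nop2, Pes1, Tsr1, Utp20 and Wdr43, and in 8.09% of all 27025 genes with a window. TTTGAA, the CHR element of cell-cycle promoters, searched on both strands, occurred in 3 of the 33 (9.09%), Ncl, Wdr12 and Wdr75, against 20.2% of all genes and 22 of 30 mitosis genes (73.3%). CCAAT, the element bound by the factor NF-Y, on both strands, occurred in 10 of the 33 (30.3%), against 41.1% of all genes and 23 of 30 mitosis genes (76.7%). Of the 15 genes with a window that rose in Null, 2 held CACGTG, and of the other 18 genes 5 did.

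The windows of the genes with the largest differences and of the motif cases are given 5′ to 3′ on the strand of the gene, with a motif or its reverse complement, TTCAAA for the CHR element and ATTGG for CCAAT, in capitals. Ifrd2, Dkc1 and Nop56 were among the 4 largest rises, Ncl carries TTCAAA, Wdr43 and Ltv1 carry CACGTG, Polr1e fell, and Ncapd2 is a mitosis gene for comparison.
Ifrd2 (chr9:107587468-107587767, plus strand): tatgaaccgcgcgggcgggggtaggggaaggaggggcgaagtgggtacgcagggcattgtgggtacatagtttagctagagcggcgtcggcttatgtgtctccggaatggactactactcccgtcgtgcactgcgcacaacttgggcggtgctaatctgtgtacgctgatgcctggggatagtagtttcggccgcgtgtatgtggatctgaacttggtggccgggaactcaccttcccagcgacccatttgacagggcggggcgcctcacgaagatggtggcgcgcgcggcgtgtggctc
Dkc1 (chrX:75095604-75095903, plus strand): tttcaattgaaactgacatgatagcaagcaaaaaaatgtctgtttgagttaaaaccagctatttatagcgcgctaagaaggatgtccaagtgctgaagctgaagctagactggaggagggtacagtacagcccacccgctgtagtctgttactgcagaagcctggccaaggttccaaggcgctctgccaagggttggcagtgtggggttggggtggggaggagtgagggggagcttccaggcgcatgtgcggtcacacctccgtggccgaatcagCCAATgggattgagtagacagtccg
Nop56 (chr2:130274162-130274461, plus strand): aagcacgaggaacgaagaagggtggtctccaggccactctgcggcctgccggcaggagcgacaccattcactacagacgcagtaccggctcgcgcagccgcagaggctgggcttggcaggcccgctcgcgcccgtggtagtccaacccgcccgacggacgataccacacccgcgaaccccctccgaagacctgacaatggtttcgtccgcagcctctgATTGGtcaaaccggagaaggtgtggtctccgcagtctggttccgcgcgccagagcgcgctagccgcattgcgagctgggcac
Ncl (chr1:86359406-86359705, minus strand): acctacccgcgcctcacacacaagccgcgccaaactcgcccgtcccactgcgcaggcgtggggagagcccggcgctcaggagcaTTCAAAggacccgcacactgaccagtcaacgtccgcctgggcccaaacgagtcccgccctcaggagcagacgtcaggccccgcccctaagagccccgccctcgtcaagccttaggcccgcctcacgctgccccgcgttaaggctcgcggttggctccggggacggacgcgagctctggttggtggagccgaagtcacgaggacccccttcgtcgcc
Wdr43 (chr17:71615965-71616264, plus strand): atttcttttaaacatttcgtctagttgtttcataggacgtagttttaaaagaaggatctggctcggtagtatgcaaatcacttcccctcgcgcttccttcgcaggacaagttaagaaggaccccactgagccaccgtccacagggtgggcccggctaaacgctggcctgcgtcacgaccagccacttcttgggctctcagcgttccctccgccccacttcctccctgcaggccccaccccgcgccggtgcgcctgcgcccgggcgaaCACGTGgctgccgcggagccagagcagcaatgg
Ltv1 (chr10:13193088-13193387, minus strand): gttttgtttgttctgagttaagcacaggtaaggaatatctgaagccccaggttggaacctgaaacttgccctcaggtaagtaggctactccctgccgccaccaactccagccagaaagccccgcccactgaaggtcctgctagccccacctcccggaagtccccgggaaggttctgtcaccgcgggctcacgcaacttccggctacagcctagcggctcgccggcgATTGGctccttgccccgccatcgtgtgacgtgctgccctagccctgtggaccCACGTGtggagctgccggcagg
Polr1e (chr4:45018359-45018658, plus strand): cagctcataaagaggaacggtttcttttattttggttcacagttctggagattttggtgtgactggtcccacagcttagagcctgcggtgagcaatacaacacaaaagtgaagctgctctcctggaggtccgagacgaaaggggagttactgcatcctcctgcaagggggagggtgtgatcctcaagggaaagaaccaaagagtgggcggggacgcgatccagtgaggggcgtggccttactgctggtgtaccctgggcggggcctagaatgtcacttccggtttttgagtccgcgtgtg
Ncapd2 (chr6:125191537-125191836, minus strand): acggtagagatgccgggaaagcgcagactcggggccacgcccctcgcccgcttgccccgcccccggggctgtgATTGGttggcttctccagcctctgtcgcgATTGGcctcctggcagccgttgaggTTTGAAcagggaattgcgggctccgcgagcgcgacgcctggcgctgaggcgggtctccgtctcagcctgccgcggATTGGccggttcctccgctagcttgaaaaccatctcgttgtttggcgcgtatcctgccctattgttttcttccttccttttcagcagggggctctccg
The Ifrd2 and Polr1e windows hold none of these letters, although the genes moved in opposite directions in Null relative to WT. Dkc1 and Nop56 hold 1 CCAAT or ATTGG each, Ltv1 holds 1 ATTGG and 1 CACGTG, and Ncapd2 holds 3 ATTGG and 1 TTTGAA. In the windows shown no match overlapped another. A match describes letters in these windows and is not a bound site, and no match says only that these letters are not there.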

How the data were processed

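The authors deposited 1 linear intensity per probe set and array, with values from 8.548 to 32042.1, made with RMA per the submitters' processing notes, with version and options not given in the sources used here. The deposited intensities were taken to log2. Of 45101 probe sets 64 controls were left out, and of the remaining 45037, 34945 had 1 gene symbol. The 932 with several symbols and the 9160 without an entry were not used. Each of 18193 genes was read from its probe set with the highest mean, and 15266 were tested, those with 3 or more arrays above log2 4.79, the 30th percentile. The number of arrays limits the precision.

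A model with 5 group means, and 1 with 7 subgroup means for the parts of Null and WT, was fitted to all 23 arrays with limma 3.58.1 in R 4.3.3, with moderated two-sided tests and Benjamini-Hochberg adjustment at 0.05. The method was tested on simulated data. The 40 genes, the comparison lists and the rule for genes named with all values were chosen with earlier results of these data known. The rule took Myc, Ncl, Npm1, Fbl, Polr1b and Ubtf, the 8 members with the largest moderated statistic in Null minus WT, the 3 in each comparison of a mutant, and up to 4 genes of each other list. Title numbers were taken to pair arrays where a comparison had 3 or more same-number pairs and the residuals of every such pair correlated above 0.1. This held for 25,26 with WT (6 of 6 pairs, median 0.321, against -0.123 for other numbers), 53,54 with Null (5 of 5, 0.441, against -0.17), LSL-WT Cre with LSL-WT Emp (3 of 3, 0.736, against -0.544) and LSL-WT Cre with WT Cre (3 of 3, 0.539, against -0.238). The labels do not say what equal numbers mark. LSL-WT Emp and LSL-WT Cre arrays of equal number had the same strain. Their Xist levels were 6.77 and 6.40 (number 1), 12.62 and 12.71 (number 2), and 6.32 and 6.42 (number 3). Whether these were the same cells was not tested, and the fits without the block took the arrays as independent. The block was fitted to all 23 arrays, also those of comparisons where the rule did not hold. Alternatives covered filters, probe-set summaries, normalization, strain, Xist level, variance settings, array weights, the compared arrays alone, the replicate block and each array left out in turn.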

Additional observations from a re-analysis of the deposited data

Results flagged for a closer look

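Among 120 combinations of a gene and a group of 5 or 6 arrays, 14 held 1 array far from the others, and chance flags about 1 in 20 such combinations. Null replicate 4 was the lowest Null array for Mybbp1a at 11.73 (others 12.20 to 12.47), Polr1a at 9.60 (9.97 to 10.14), Polr1e at 8.61 (8.97 to 9.08), Utp20 at 9.71 (10.26 to 10.42) and Pes1 at 10.60 (10.91 to 11.08). In 25,26, replicate 2 was the lowest for Nop56 at 11.05 (others 11.50 to 11.60), Utp20 at 9.80 (10.22 to 10.35), Pes1 at 10.41 (10.83 to 10.89), Wdr12 at 9.59 (10.15 to 10.22) and Nip7 at 10.99 (11.34 to 11.43). Replicate 1 of 25,26 was the highest for Ncl at 13.68 (others 13.34 to 13.44), Rrp9 at 10.50 (9.87 to 10.03) and Bop1 at 10.43 (9.97 to 10.01). WT replicate 2 was the lowest for Dkc1 at 10.81 (others 11.12 to 11.24). The title number was 2 for Null replicate 4, for 25,26 replicate 2 and for WT replicate 2. Null replicate 4 and 25,26 replicate 2 held 10 of the 14 values. The cause was not tested.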

How the results depend on the processing

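In Null with WT 19 members were called, and leaving out 1 array at a time gave 14 to 23. With the title number as a replicate block, Mybbp1a, Ubtf, Nhp2 and the large-subunit factors Nip7 and Noc2l passed there as well. No called result changed direction under any alternative run. With the title number as a replicate block the members called were 33 in LSL-WT Cre minus LSL-WT Emp (21 without it), 24 in QM with WT, 17 in 25,26 with Null, 8 in Null Cre minus WT Cre, 4 in the difference of the parts and 3 in 25,26 with WT. With a later-added setting that joined the block with the compared arrays alone they were 36, 12 and 0 in LSL-WT Cre minus LSL-WT Emp, 25,26 with Null and Null Cre minus WT Cre. The compared arrays alone, without the block, gave 8, 2 and 1 in the same order. Array weights gave 10 in 25,26 with Null, 8 in 53,54 with WT, 7 in Null Cre minus WT Cre and 5 in 25,26 with WT. The Xist level as a covariate gave 2 in 25,26 with WT, 1 in 25,26 with Null and 0 in Null Cre minus WT Cre, the mean of all probe sets and median centring gave 2 each in Null Cre minus WT Cre, and leaving out title number 2 gave 2 in 25,26 with WT. Leaving out 1 array gave 0 to 4 in Null Cre minus WT Cre, 0 to 1 in 25,26 with WT, 6 to 15 in QM with WT, 2 to 6 in 25,26 with Null, 12 to 32 in 53,54 with Null, 10 to 22 in LSL-WT Cre minus LSL-WT Emp and 0 to 1 in the difference of the parts. For LSL-WT Cre minus WT Cre, added later, the call of 1 became 5 with the block and 0 with median centring, with the strain covariate, with array weights, without title number 2, with the compared arrays alone (with and without the block) and without WT replicate 1, 2, 4 or 5, and Null Cre minus LSL-WT Emp had 1 with array weights. The share of all genes called under these settings is not given here, so these counts cannot be set against it. The cause of these changes was not tested. Normalization moved the median of all genes by less than 0.1 in every comparison. Groups of 3 arrays limit what can be called, and the strain, sex and title number of the arrays were not balanced between groups.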
